A study of Mus musculus with 19 samples.

Results

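The comparison of day 4 with day 1 in differentiating P19CL6 cells covered every gene that the authors' deposited table for these days lists, 1779 genes or 42.2% of the 4213 that appear in any of the study's 4 tables of a later day against day 1. P19CL6 cells derive from a mouse teratocarcinoma and can turn into beating heart muscle in culture, and the study followed them over days 1, 4, 7, 10 and 14. The day 4 group was 4 libraries and the day 1 group 3 libraries of the same line, each from 1 µg of total RNA, and the labels give no further treatment or genotype for either group. RNA was measured by digital gene expression tag profiling, which reads a short tag per transcript and counts tags per gene, at a mean of 5.86 (day 4) and 5.81 (day 1) in units of 1e+06 tags a library. The series' design text speaks of 4 replicates at each day, and the day 1 means are means over 3 libraries.

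Levels are in TPM, tags per 1e+06 tags, and each is the authors' mean over the libraries of a day, so no spread between libraries and no test can be given. "Higher" and "lower" mean that the table lists the gene with that sign of day 4 over day 1. The table holds only genes that passed the authors' filter and differed at least 2-fold, and a gene not listed is not shown to be unchanged. Folds come from summed tags, and their 95% intervals cover counting error only. Since whole cultures were measured, more cells of a type and more RNA per cell cannot be told apart.

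When pluripotent cells of the early embryo leave the epiblast through the primitive streak, Wnt, Nodal, BMP and FGF signals switch on T-box and homeobox factors that set mesoderm identity. Cells that stay near the streak become presomitic mesoderm, which is patterned along the body axis by Hox genes, and the pluripotency factors are lost as this proceeds. Embryonal carcinoma cells share the pluripotency factors of the epiblast and are used as a culture model of these steps.

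Of the 1779 genes, 899 were higher on day 4, which is 50.5%, and 880 were lower, which is 49.5%. Large changes were mostly upward: 359 genes (20.2% of the table) were at least 4-fold higher and 142 (7.98%) at least 4-fold lower. At least 16-fold higher were 125 genes, and at least 16-fold lower were 15. Both 16-fold counts include genes at 0 tags on either day, set against a floor described below. The count of 125 also includes genes with a day 1 sum of 2 tags, and it was not repeated with such low sums raised. The median fold was 3.32 among higher genes and 2.51 downward among lower genes. Higher genes were mostly rare on day 1, with a median of 21.7 TPM on day 4 and 6.08 TPM on day 1. On day 1 lower genes were the more abundant group, at a median of 36.5 TPM. On day 4 they were the less abundant one, at 14.0 TPM. Together the higher genes held 5.41% of all tags on day 4 and 1.64% on day 1, and the lower genes held 3.09% on day 4 and 8.02% on day 1. At the 2-fold edge, Rpl31 (100.1 TPM on day 4, 49.99 TPM on day 1) was just inside on the higher side and Got2 (64.3 TPM on day 4, 128.6 TPM on day 1) just inside on the lower side.

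**Figure D1:**
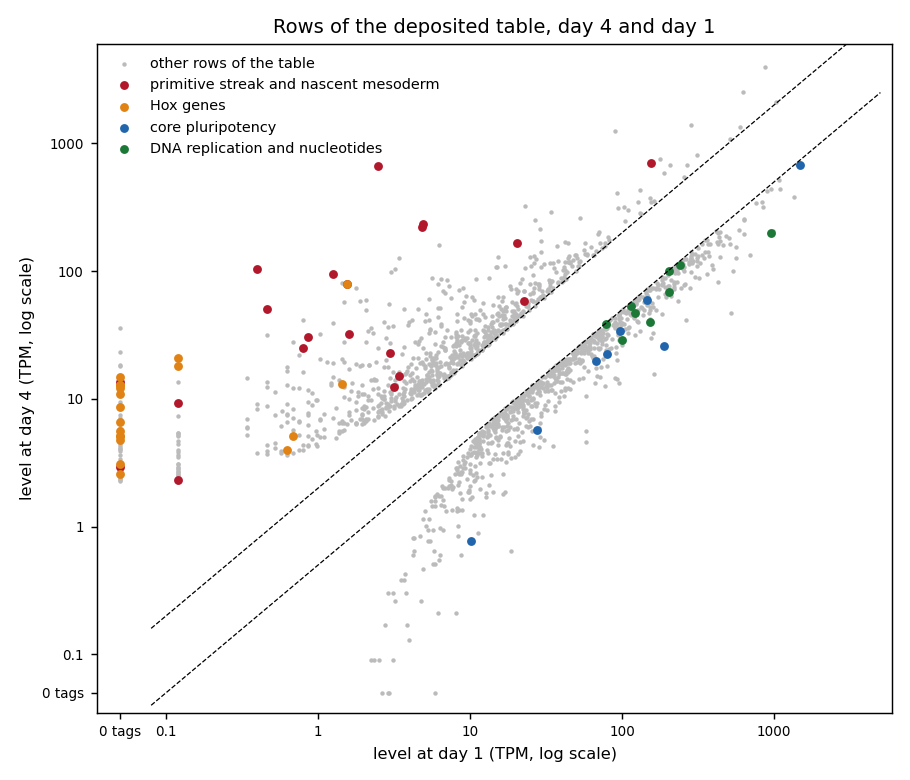
Level on day 4 (vertical, TPM, log scale) against level on day 1 (horizontal, TPM, log scale) for the 1779 genes of the table, 1 point per gene, with genes at 0 tags set at the marked end of each axis and dashed lines at 2-fold. All listed streak regulators and Hox genes lie above the upper line, most of them at low day 1 levels, and the highest of them on day 1 is T, at 156 TPM. All listed core pluripotency and replication genes lie under the lower line, and the one farthest under it is Foxd3, at 0.77 TPM on day 4 and 10.1 TPM on day 1.

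The number of tags behind the smallest day 1 levels limits some folds. Among the 1779 genes, 57 had 0 tags on day 1 and 29 had a sum of 2 tags, but 0 had a sum of 1, 3, 4 or 5. Over the 4213 genes of all tables, 330 had 0 and 99 had 2, and again 0 genes had 1, 3, 4 or 5. How this gap arose is not given in the sources used here, so day 1 sums under 6 tags (0.344 TPM) were not taken as resolved. Folds of genes at 0 tags are relative to a floor of 3 counts and are not lower limits. With every day 1 sum under 6 set to 6, a setting chosen after seeing the data, all 86 such genes were at least 4-fold higher. On day 4 all higher genes were at 2.22 TPM or more, so this outcome was fixed in advance and tests nothing. Folds with day 1 at 6 tags are given below beside the first value.

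Promoter sequence is shown for genes of the 3 groups whose listed members most often held the motif looked for. The sequences are the 250 bases before the RefSeq start site in build GRCm38.p6, a different build from the mm9 of the study, and 1352 of the 1779 genes had a promoter there. In all, 6 motifs were searched on both strands. TCF/LEF, the motif of the Wnt effectors, was searched as CTTTGAA or CTTTGAT, and is in capitals in these promoters of streak genes.
Msgn1 (chr12:11208949-11209198, minus strand): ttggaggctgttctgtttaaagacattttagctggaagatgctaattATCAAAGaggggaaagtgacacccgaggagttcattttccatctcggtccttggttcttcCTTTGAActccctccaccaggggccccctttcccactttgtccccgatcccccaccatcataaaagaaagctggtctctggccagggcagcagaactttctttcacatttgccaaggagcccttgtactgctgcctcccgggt
Mesp1 (chr7:79793591-79793840, minus strand): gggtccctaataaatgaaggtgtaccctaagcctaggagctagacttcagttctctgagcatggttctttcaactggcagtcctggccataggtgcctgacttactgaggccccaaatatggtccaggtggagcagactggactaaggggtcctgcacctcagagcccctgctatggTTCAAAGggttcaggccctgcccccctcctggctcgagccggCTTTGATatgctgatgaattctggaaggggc
T (chr17:8434173-8434422, plus strand): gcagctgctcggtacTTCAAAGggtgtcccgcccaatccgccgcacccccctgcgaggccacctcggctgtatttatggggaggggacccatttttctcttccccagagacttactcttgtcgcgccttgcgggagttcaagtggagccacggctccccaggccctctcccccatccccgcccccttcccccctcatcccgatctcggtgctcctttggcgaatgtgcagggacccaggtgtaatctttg
The core of the hypoxia response element, ACGTG, is in capitals in the promoter of Egln3, a prolyl hydroxylase gene.
Egln3 (chr12:54203875-54204124, minus strand): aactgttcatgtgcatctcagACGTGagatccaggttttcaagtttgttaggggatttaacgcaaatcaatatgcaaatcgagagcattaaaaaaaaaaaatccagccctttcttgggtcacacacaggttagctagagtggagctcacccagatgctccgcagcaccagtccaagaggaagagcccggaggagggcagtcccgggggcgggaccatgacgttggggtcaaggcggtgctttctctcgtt
The C/EBP-ATF element, searched as TGATGNAA, is in capitals in the promoters of Chac1, a glutathione-degrading enzyme gene, and Asns, the asparagine synthetase gene.
Chac1 (chr2:119350992-119351241, plus strand): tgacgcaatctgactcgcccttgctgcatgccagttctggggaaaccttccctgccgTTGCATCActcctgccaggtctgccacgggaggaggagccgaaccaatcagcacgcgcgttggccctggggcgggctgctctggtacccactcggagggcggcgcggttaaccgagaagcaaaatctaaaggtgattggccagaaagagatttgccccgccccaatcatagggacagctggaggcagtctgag
Asns (chr6:7693210-7693459, minus strand): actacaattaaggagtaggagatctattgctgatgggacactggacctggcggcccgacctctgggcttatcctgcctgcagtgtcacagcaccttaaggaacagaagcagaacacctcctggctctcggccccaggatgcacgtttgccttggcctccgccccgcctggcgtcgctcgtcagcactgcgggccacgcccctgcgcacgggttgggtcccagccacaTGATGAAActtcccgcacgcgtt
TCF/LEF letters were in 5 of 14 listed streak genes with a promoter (Mesp1, Msgn1, Sp5, Sp8 and T), against 8.63% of all 27025 genes, 7.41% of higher genes and 6.66% of lower genes, and in 1 of 9 presomitic genes. ACGTG was in 8 of 10 hypoxia genes and 2 of 8 glycolysis genes, against 18.5% of all genes, 26.3% of higher and 25.5% of lower genes. TGATGNAA was in 4 of 10 amino acid response genes (Aars, Asns, Chac1 and Gars), against 3.91% of all genes, 2.27% of higher and 2.61% of lower genes. A T-box motif, TCACACCT, was in 0 of 14 streak genes, 0 of 9 presomitic genes and 1.30% of all genes, 0.605% of higher and 0.724% of lower genes. E2F letters, TTTCCCGC or TTTGGCGC, were in 0 of 8 replication genes, 1 of 4 G1/S genes and 1.51% of all genes, 1.66% of higher and 3.62% of lower genes. The heat shock element, TTCNNGAA, was in 2 of 9 chaperone genes and 8.12% of all genes, 7.56% of higher and 8.39% of lower genes. These are matches of letters in 1 window and were not tested. The promoters shown, and the genes Sp8 and Asns, were chosen after their values were seen.

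The genes described below come from 42 lists with 1119 symbols, of which 284 (25.4%) were in the table. The share listed in each group can be set beside that. The lists were chosen with earlier results known, so 25.4% is not the share over all genes. Of the 27025 genes with a promoter, 1352 were in the table. Regulators of the primitive streak and nascent mesoderm were among the groups with the largest folds. Of 34 genes on that list 20 were higher, 0 were lower and 14 were not listed, and 18 were at least 4-fold higher. The median log2 ratio of the listed members, with genes at 0 tags set against the floor, was 5.05, and that of all 899 higher genes was 1.73. Tbx6, a T-box factor needed for presomitic mesoderm, was at 669 TPM on day 4, against 2.47 TPM on day 1, 271-fold higher (95% interval 201 to 375). Mixl1, a homeobox factor of the streak, was at 221 TPM on day 4 and 4.82 TPM on day 1, 45.8-fold higher. Mesp1, a basic helix-loop-helix factor of early cardiac and cranial mesoderm, was at 94.4 TPM on day 4 and 1.26 TPM on day 1, 74.7-fold higher (49.2 to 120). The 4 mesoderm markers taken for day 4, Tbx6, Wnt3a, Mesp1 and Mixl1, were all above 90 TPM on day 4 and under 5 TPM on day 1. Because they were taken as its markers, these levels describe day 4 and do not test what its cells are.

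T, or brachyury, the T-box factor that marks the streak, was at 701 TPM on day 4 and already at 156 TPM on day 1, 4.49-fold higher (4.32 to 4.68). Cdx2, a caudal homeobox factor of the posterior embryo and of trophoblast, was at 235.5 TPM on day 4 and 4.94 TPM on day 1. Aplnr, the apelin receptor of migrating mesoderm, was at 51.0 TPM on day 4 and 0.46 TPM on day 1. Snai1, the repressor that drives the epithelial to mesenchymal change, was at 30.4 TPM on day 4 and 0.86 TPM on day 1. Eomes, a T-box factor of the anterior streak, was not listed on day 4, though it is listed in the tables of days 7, 10 and 14.

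Presomitic and somite genes shared much of this change, with 9 of 28 higher, 1 lower and 18 not listed. Msgn1, a bHLH factor of presomitic mesoderm, had 13.5 TPM on day 4 and 0 tags on day 1. Its fold was 78.3 against the floor and 39.1 with day 1 at 6 tags. Dll3, a Notch ligand of the somite clock, was at 98.0 TPM on day 4 and 3.04 TPM on day 1. Nrarp, a Notch feedback inhibitor, was at 69.6 TPM on day 4 and 6.6 TPM on day 1, and Lfng, a glycosyltransferase acting on Notch, was at 11.3 TPM on day 4 and 3.04 TPM on day 1. The exception was Efnb2, an ephrin named here after its values were seen, at 11.9 TPM on day 4 and 25.8 TPM on day 1. Of the Notch list 8 of 25 genes were higher and 2 lower, and Notch1 itself, a receptor, was at 108.5 TPM on day 4 and 14.8 TPM on day 1.

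**Figure D2:**
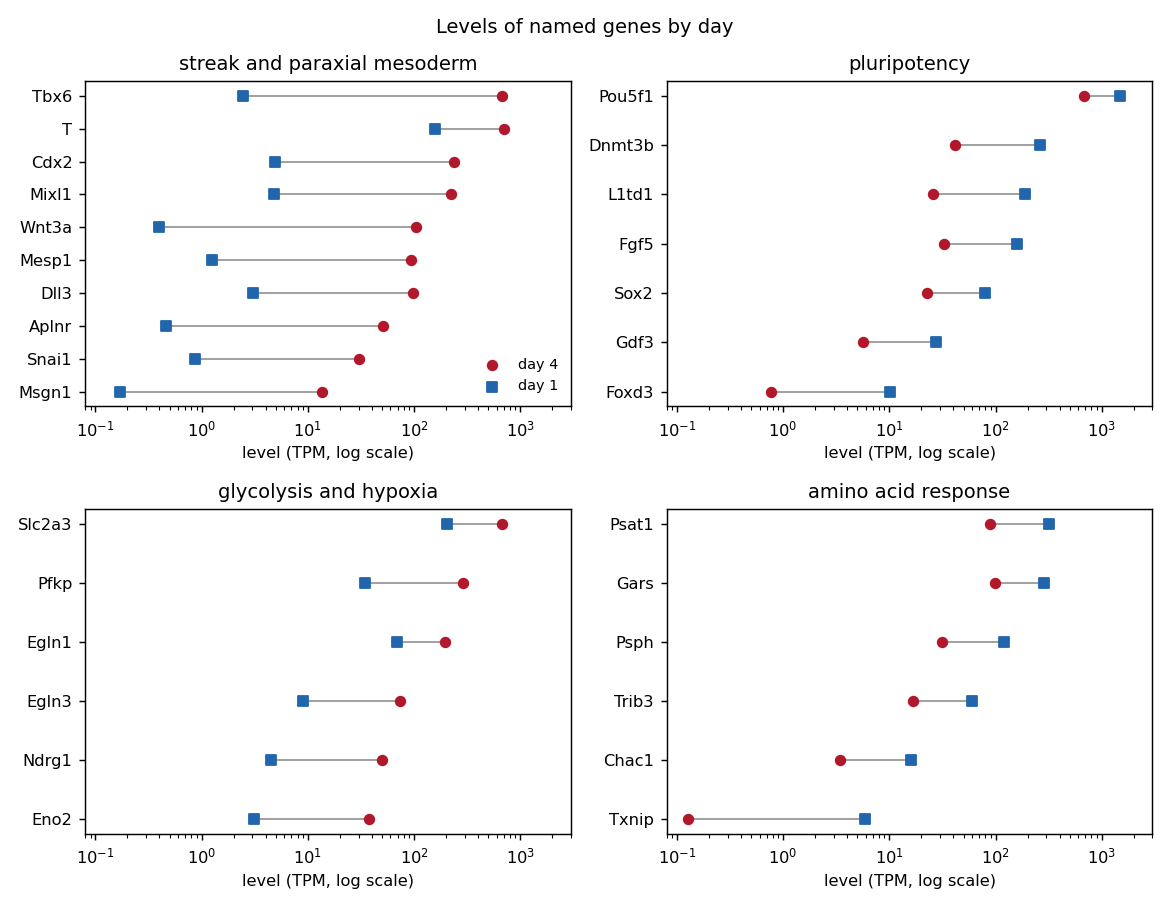
Levels (horizontal, TPM, log scale) on day 4 (circles) and day 1 (squares) of named genes in 4 groups, with a line joining both days of a gene and genes at 0 tags set at the floor of 3 counts. Streak genes and the glycolysis and hypoxia genes have the day 4 circle to the right, and pluripotency and amino acid response genes have it to the left.

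Among the signals, 5 of 23 genes on the Wnt ligand list were higher, 1 was lower and 17 were not listed. The 5 include Rspo3, which is not itself a Wnt. Wnt3a, the ligand of the streak and tail bud, was at 104 TPM on day 4 and 0.40 TPM on day 1, 260-fold higher (126 to 647). Wnt5b was at 129.8 TPM on day 4 and 15.3 TPM on day 1, Wnt5a at 31.5 TPM on day 4 and 0.46 TPM on day 1, and Rspo3, an R-spondin that strengthens Wnt signals, at 55.6 TPM on day 4 and 2.93 TPM on day 1. Wnt7a went the other way, at 2.64 TPM on day 4 and 10.9 TPM on day 1. Of receptors and transducers 4 of 26 were higher and 2 lower: the receptor Fzd10 was at 309.6 TPM on day 4 and 93.6 TPM on day 1, and the repressor Tcf7l1 at 19.8 TPM on day 4 and 67.2 TPM on day 1. Feedback targets of Wnt included Sp5 (167 TPM on day 4, 20.5 TPM on day 1), Axin2 (128 TPM on day 4, 50.7 TPM on day 1) and the Wnt deacylase gene Notum (9.81 TPM on day 4, 0.97 TPM on day 1). In that list 5 of 26 genes were higher and 2 lower, the lower ones being Sfrp1 and Ccnd1.

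BMP pathway genes were higher in 10 of 30 cases and lower in 0. The ligand Bmp4 was at 14.0 TPM on day 4 and 1.38 TPM on day 1, and the BMP target Msx1, a homeobox factor, at 158.8 TPM on day 4 and 6.26 TPM on day 1, 25.4-fold higher (21.0 to 31.0). Id2, another target, was at 165 TPM on day 4 and 44.0 TPM on day 1. Of the Nodal and activin list 4 of 22 were higher and 1 lower. Lefty2, a Nodal inhibitor induced by Nodal, had 36.2 TPM on day 4 and 0 tags on day 1. Its fold was 210 against the floor and 105 with day 1 at 6 tags. Fst, or follistatin, which binds activin, was at 679 TPM on day 4 and 268.6 TPM on day 1, and Gdf3, a Nodal-like ligand of pluripotent cells, was lower, at 5.67 TPM on day 4 and 27.7 TPM on day 1.

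FGF and ERK feedback genes divided, with 10 of 30 higher and 4 lower. The ligand Fgf17 was at 8.27 TPM on day 4 and 0.40 TPM on day 1, and the ERK phosphatase gene Dusp6 at 132 TPM on day 4 and 45.1 TPM on day 1. Fgf5, the ligand of the late epiblast, was at 33.0 TPM on day 4 and 161 TPM on day 1, 4.87-fold lower (4.50 to 5.29). Retinoic acid genes were higher in 5 of 23 cases and lower in 0, led by Aldh1a2, the enzyme that makes retinoic acid in mesoderm. It was at 17.7 TPM on day 4 and a sum of 2 tags on day 1, 154-fold higher (42.4 to 1277.5), or 51.4-fold with day 1 at 6 tags. Cyp26a1, which degrades retinoic acid, was at 71.4 TPM on day 4 and 8.49 TPM on day 1.

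The study's title names TGF-β signalling, endocytosis and the primary cilium. Of 23 TGF-β ligands, receptors and SMADs, 1 was higher, 1 was lower and 21 were not listed. The ligand Tgfb1 was at 21.1 TPM on day 4 and 4.19 TPM on day 1, and the co-receptor Tgfbr3 at 7.21 TPM on day 4 and 23.5 TPM on day 1. The receptors Tgfbr1 and Tgfbr2 and the transducers Smad2, Smad3, Smad4 and Smad7 were not listed on day 4, nor were the ciliary transport gene Ift88, the clathrin gene Cltc or the caveolin gene Cav1. Of 43 cilium genes 6 were higher, 1 was lower and 36 were not listed, and 7 of the 14 that any of the study's tables lists were listed on day 4. Among them were Dync2h1, the motor of retrograde ciliary transport (27.7 TPM on day 4, 8.67 TPM on day 1), and Kif3a, an anterograde motor (43.9 TPM on day 4, 20.2 TPM on day 1). Of 47 endocytosis genes 4 were higher, 5 were lower and 38 were not listed. Amph, or amphiphysin, was higher, at 79.7 TPM on day 4 and 6.2 TPM on day 1. Among the 5 lower ones were Cd209c (47.0 TPM on day 4, 517 TPM on day 1) and Lrp2 (5.63 TPM on day 4, 58.2 TPM on day 1).

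Of the Hox list 19 genes were higher and 0 lower, and all 19 were at least 4-fold higher. That list has 52 symbols, more than the mouse has Hox genes, so no share listed is given for it. These 19 include 13 of the 57 genes of the table with 0 tags on day 1. Paralogue groups 1 to 5, which act toward the head end, gave 12 of them, with levels summing to 204 TPM on day 4 and 2.42 TPM on day 1. Groups 6 to 13 gave 7, summing to 41.3 TPM on day 4 and 2.13 TPM on day 1. By cluster, the listed genes summed on day 4 to 48.2 TPM in HoxA, 153 TPM in HoxB, 13.8 TPM in HoxC and 30.3 TPM in HoxD. Hoxb1 was the most abundant, at 78.9 TPM on day 4 and 1.55 TPM on day 1, 50.9-fold higher (34.9 to 77.5). Hoxb3 had 14.9 TPM on day 4 and 0 tags on day 1. Its fold was 86.7 against the floor and 43.3 with day 1 at 6 tags.

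The cardiac, sarcomere, blood and endoderm lists each had a smaller share of members in the table than the 25.4% of all list symbols. So did others, such as the hedgehog, TGF-β, cilium, endocytosis and histone lists, and no list is thereby shown to be short of changed genes. Of the 22 genes on the cardiac transcription factor list 2 were higher, Hand1 and the chromatin gene Smarcd3, and 20 were not listed. Hand1 was at 2.30 TPM on day 4 and a sum of 2 tags on day 1, not taken as resolved. Smarcd3 was at 16.3 TPM on day 4 and 3.39 TPM on day 1. Of 30 sarcomere genes 2 were higher, Tnni3 and Tnnt1, at 19.5 and 14.0 TPM on day 4 and 1.49 and 4.82 TPM on day 1. Of 30 blood and endothelium genes 2 were higher, and one of them, Lmo2, a partner of blood-forming transcription factors, was at 73.3 TPM on day 4 and 1.78 TPM on day 1. Of 24 endoderm genes Apoe was higher and Lrp2, or megalin, was lower, at 5.63 TPM on day 4 and 58.2 TPM on day 1. Trophoblast and amnion genes were higher in 5 of 19 cases, including Cdx2 and Hand1, which the streak list also holds.

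Neural genes, which mark the other main fate of P19 cells, were lower in 9 of 39 cases and higher in 2, and 28 were not listed. Stmn2, a microtubule regulator of neurons, was at 56.5 TPM on day 4 and 149 TPM on day 1. Gng3, a neuronal G protein subunit, was at 4.56 TPM on day 4 and 57.7 TPM on day 1, 12.6-fold lower (10.3 to 15.6), and Nefl, a neurofilament, at 0.90 TPM on day 4 and 11.3 TPM on day 1. Fabp7, a fatty acid binding protein of neural progenitors, was higher, at 12.3 TPM on day 4 and 0.46 TPM on day 1.

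Core pluripotency genes were lower in 8 of 22 cases and higher in 0. Pou5f1, or Oct4, was at 678 TPM on day 4 and 1489.5 TPM on day 1, 2.20-fold lower (2.15 to 2.24), and so remained among the abundant transcripts. Sox2 was at 22.4 TPM on day 4 and 79.3 TPM on day 1, and Nanog, Utf1 and Zfp42, further markers of undifferentiated cells, were not listed. L1td1, an RNA-binding protein of pluripotent cells, was at 25.8 TPM on day 4 and 189 TPM on day 1, 7.33-fold lower (6.72 to 8.01). Foxd3, a forkhead factor of the epiblast, was at 0.77 TPM on day 4 and 10.1 TPM on day 1. Of 18 epiblast genes 5 were lower and 1, Lefty2, was higher, and Dnmt3b, a de novo DNA methyltransferase, was at 41.8 TPM on day 4 and 264.5 TPM on day 1. Of the 21 genes on the naive list the 4 listed ones went the other way (Gbx2, Klf5, Tbx3 and Fgf4), with 0 lower. These 4 also have known roles in the embryo after gastrulation begins. Klf5 was at 2.82 TPM on day 4 and a sum of 2 tags on day 1, a sum not taken as resolved.

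**Figure D3:**
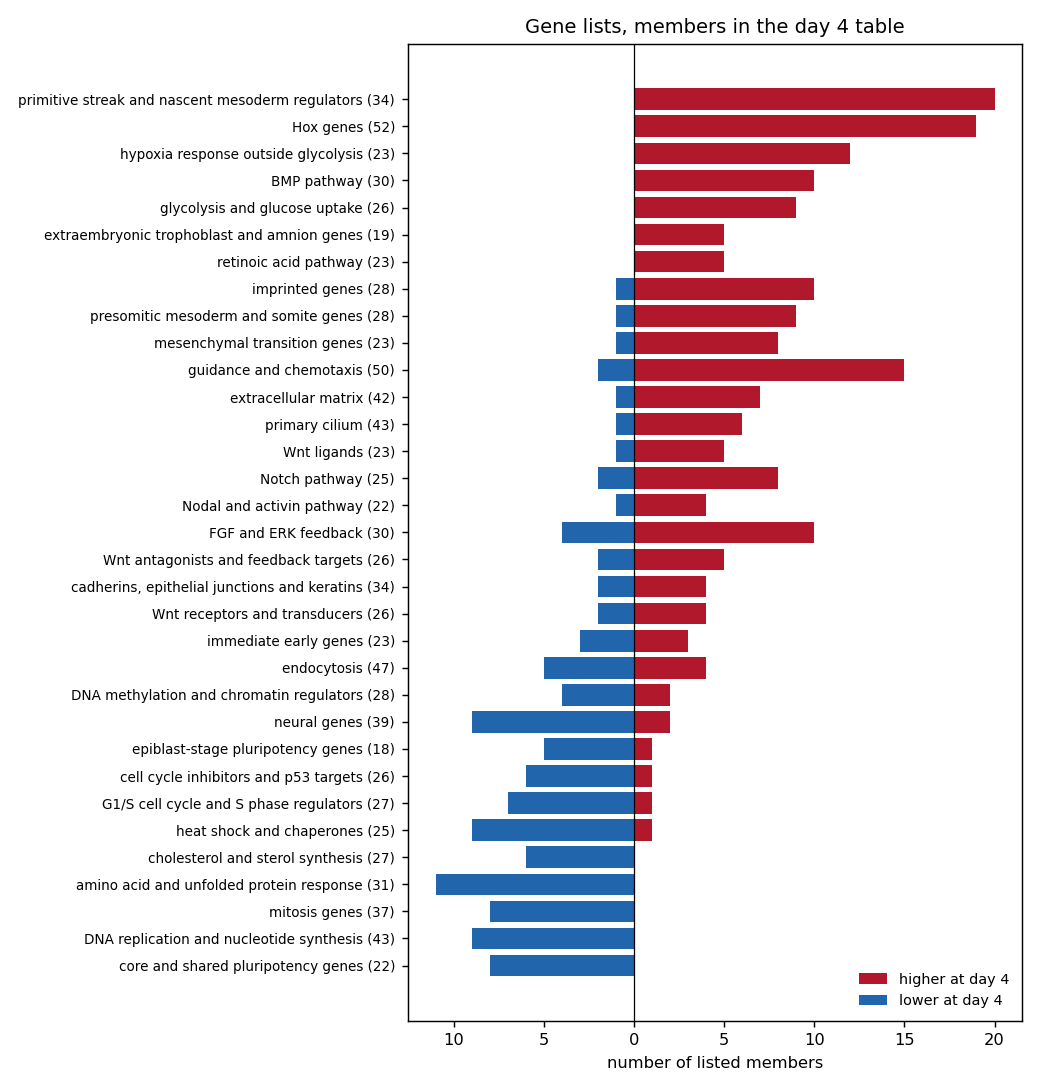
Number of members higher on day 4 (right of the line) and lower on day 4 (left) for the 33 gene lists with at least 5 members in the table, with the size of each list in brackets. Streak, Hox, hypoxia, BMP and glycolysis lists have bars to the right alone, and core pluripotency, replication, mitosis, amino acid and sterol lists have bars to the left alone.

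Genes of DNA replication and nucleotide synthesis were lower in 9 of 43 cases and higher in 0. Dut, the dUTPase that keeps uracil out of DNA, was at 199 TPM on day 4 and 956 TPM on day 1, 4.81-fold lower (4.65 to 4.97). Gart, a purine synthesis enzyme, was at 39.8 TPM on day 4 and 154 TPM on day 1. Of G1/S regulators 7 of 27 were lower and 1 higher: cyclin E1 (Ccne1) was at 14.4 TPM on day 4 and 52.4 TPM on day 1, and cyclin D2 (Ccnd2) at 137 TPM on day 4 and 58.4 TPM on day 1. Mitosis genes were lower in 8 of 37 cases and higher in 0, with the kinase gene Plk1 at 56.3 TPM on day 4 and 157 TPM on day 1. Cell cycle inhibitors and p53 targets were lower in 6 of 26 cases and higher in 1, and 19 were not listed. Cdkn2a was at 0.51 TPM on day 4 and 5.91 TPM on day 1, and Ccng2 was the higher one, at 57.1 TPM on day 4 and 9.07 TPM on day 1.

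Glucose uptake and glycolysis genes were higher in 9 of 26 cases and lower in 0. The glucose transporter genes Slc2a3 and Slc2a1 were at 674.5 and 347 TPM on day 4 and 205.6 and 128 TPM on day 1. Pfkp, a phosphofructokinase, was at 289.5 TPM on day 4 and 34.3 TPM on day 1, 8.45-fold higher (7.77 to 9.20). Hypoxia response genes outside glycolysis were higher in 12 of 23 cases and lower in 0. Egln3, whose promoter is shown above, was at 74.4 TPM on day 4 and 9.01 TPM on day 1, 8.26-fold higher (7.01 to 9.79). Ndrg1 was at 50.4 TPM on day 4 and 4.53 TPM on day 1, and Vegfa, the vascular growth factor, at 37.6 TPM on day 4 and 18.1 TPM on day 1.

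Amino acid and unfolded protein response genes were lower in 11 of 31 cases and higher in 0. The serine synthesis enzymes Psat1 and Psph were at 89.0 and 31.6 TPM on day 4 and 319 and 121 TPM on day 1. Chac1 was at 3.41 TPM on day 4 and 16.1 TPM on day 1, 4.71-fold lower (3.66 to 6.12), and Asns, named for its promoter, at 77.1 TPM on day 4 and 204.8 TPM on day 1. Txnip, an arrestin-like protein that limits glucose uptake, had 0 tags on day 4 and 5.91 TPM on day 1, 46.2-fold lower against the floor. Its relative Arrdc4 was at 1.96 TPM on day 4 and 11.7 TPM on day 1. Heat shock and chaperone genes were lower in 9 of 25 cases and higher in 1, with Hsp90aa1 at 319.7 TPM on day 4 and 845 TPM on day 1. Sterol synthesis genes were lower in 6 of 27 cases and higher in 0, with the isomerase gene Idi1 at 54.0 TPM on day 4 and 146 TPM on day 1.

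Of 42 matrix genes 7 were higher, 1 was lower and 34 were not listed: Fn1, or fibronectin, was at 323 TPM on day 4 and 23.1 TPM on day 1, 14.0-fold higher (12.6 to 15.5), and Col18a1 was lower, at 24.4 TPM on day 4 and 81.7 TPM on day 1. Of 50 guidance and chemotaxis genes 15 were higher, 2 were lower and 33 were not listed. The semaphorin receptor gene Plxna2 was at 81.3 TPM on day 4 and 1.44 TPM on day 1, the ephrin gene Efna1 at 41.1 TPM on day 4 and 0.80 TPM on day 1, and Slit3, a secreted repellent, at 50.2 TPM on day 4 and 3.67 TPM on day 1. Of 23 mesenchymal transition genes 8 were higher and 1 lower. Cdh1 and Cdh2, the epithelial and mesenchymal cadherins, were not listed on day 4. The tight junction gene Cldn7 was lower, at 1.36 TPM on day 4 and 8.90 TPM on day 1, and the keratin genes Krt8 and Krt18 were higher, at 44.5 and 22.1 TPM on day 4 and 13.9 and 5.97 TPM on day 1.

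Imprinted genes, which are expressed from a single parental copy, were higher in 10 of 28 cases and lower in 1. The growth factor gene Igf2 was at 108 TPM on day 4 and 14.98 TPM on day 1, and the neighbouring non-coding RNA gene H19 at 39.8 TPM on day 4 and 2.70 TPM on day 1. Mest was the lower one, at 79.5 TPM on day 4 and 258.5 TPM on day 1. Gpc3, a heparan sulphate proteoglycan that binds growth factors, was at 1246 TPM on day 4 and 89.3 TPM on day 1, 13.9-fold higher (13.3 to 14.7).

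The remaining lists were smaller or mixed. Of 28 DNA methylation and chromatin regulators 2 were higher and 4 lower, and Hmga2, a chromatin protein of early embryonic cells, was at 114 TPM on day 4 and 30.8 TPM on day 1. Of 23 immediate early genes 3 were higher and 3 lower, and Egr1 was at 12.7 TPM on day 4 and 77.7 TPM on day 1. Of 14 smooth muscle genes 1 was higher and 3 lower, of 17 hedgehog genes 2 were higher, and of 23 histone genes 2 were higher.

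The table's own pathway annotation, given for 863 genes, also divided by direction. Of 108 pathways with at least 10 genes, 11 had at most 25% of their genes higher and 10 had at least 75% higher, against 50.5% over the table. Aminoacyl-tRNA biosynthesis had 12 genes lower and 0 higher, with the arginine tRNA synthetase gene Rars at 184 TPM on day 4 and 434 TPM on day 1. The proteasome had 12 genes lower and 1 higher, and the spliceosome 26 lower and 3 higher. Axon guidance had 35 higher and 10 lower, ECM-receptor interaction 16 higher and 5 lower, and neuroactive ligand-receptor interaction 14 higher and 0 lower. Some assignments are loose, such as the 18S ribosomal RNA gene under focal adhesion, and the terms share genes. Of 161 genes annotated to the mitochondrion 125 were lower and 36 higher, and of 46 annotated to translation 41 were lower and 5 higher. Ribosome genes differed by the source of the annotation. As a pathway the ribosome had 8 genes higher and 4 lower, and as a cell component 4 higher and 19 lower.

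**Figure D4:**
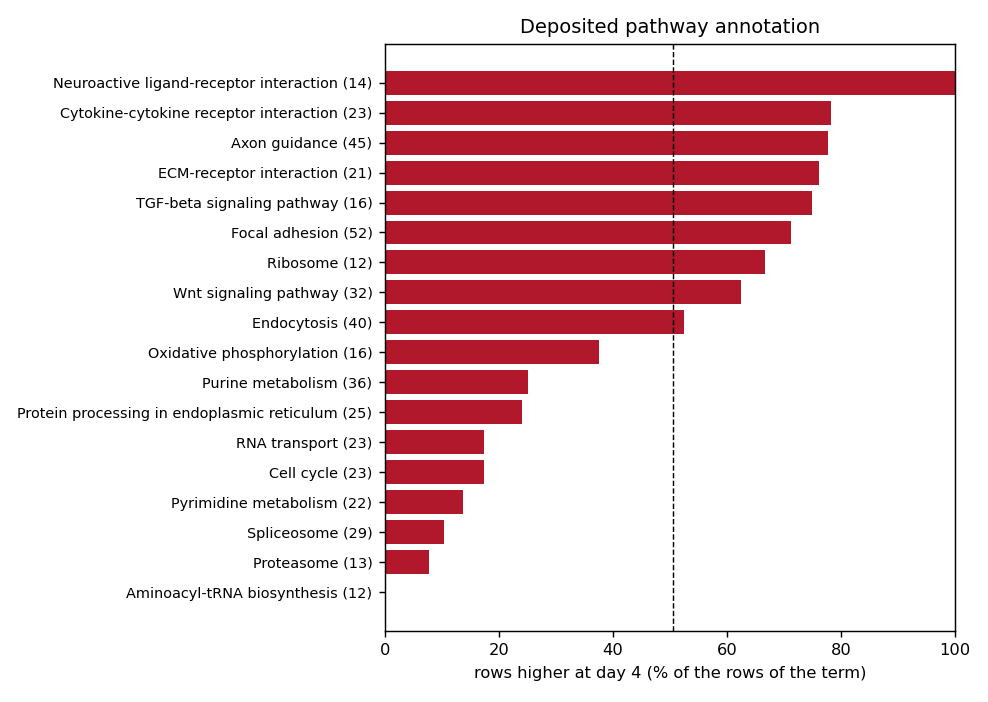
Share of genes higher on day 4 (horizontal, % of the genes of the pathway in the table) for 18 annotated pathways, with the number of genes in brackets and the share over the whole table, 50.5%, as a dashed line. Receptor, guidance and matrix pathways lie to the right of the line and tRNA charging, proteasome, spliceosome and nucleotide pathways to the left.

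Several of the most abundant changed transcripts belong to the translation machinery. Eif5a, a translation factor, was at 377 TPM on day 4 and 1341 TPM on day 1, 3.55-fold lower (3.47 to 3.64). Rpl7, a ribosomal protein gene, was at 2121 TPM on day 4 and 1024.9 TPM on day 1. Ribosomal protein genes have many near-identical copies, and how tags were shared among them is not given. The 18S (Rn18s) and 28S (LOC236598) ribosomal RNA entries were at 3928 and 2542 TPM on day 4 and 876 and 626 TPM on day 1, together 0.647% of all tags on day 4 and 0.150% on day 1. Leaving both entries and their tags out, a setting added after seeing the data, shifted every log2 ratio by 0.01 and left the share of higher genes at 50.5%.

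The other deposited tables share the day 1 libraries, so later levels are set side by side and not compared by test. Tbx6 was at 2.47, 669, 153, 19.4 and 13.3 TPM on days 1, 4, 7, 10 and 14. Wnt3a was at 0.40, 104, 34.0, 9.17 and 7.05 TPM on the same days, so both had their highest level on day 4. Igf2 was at 14.98, 108, 501, 2147 and 3243 TPM and was highest on day 14. Pou5f1 was at 1489.5, 678, 235, 117 and 144 TPM. Dnmt3b was at 264.5, 41.8, 25.7, 18.7 and 20.9 TPM, with its lowest level on day 10. Txnip, at 0 tags on day 4, was at 37.0 TPM on day 7 and is not listed after that.

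**Figure D5:**
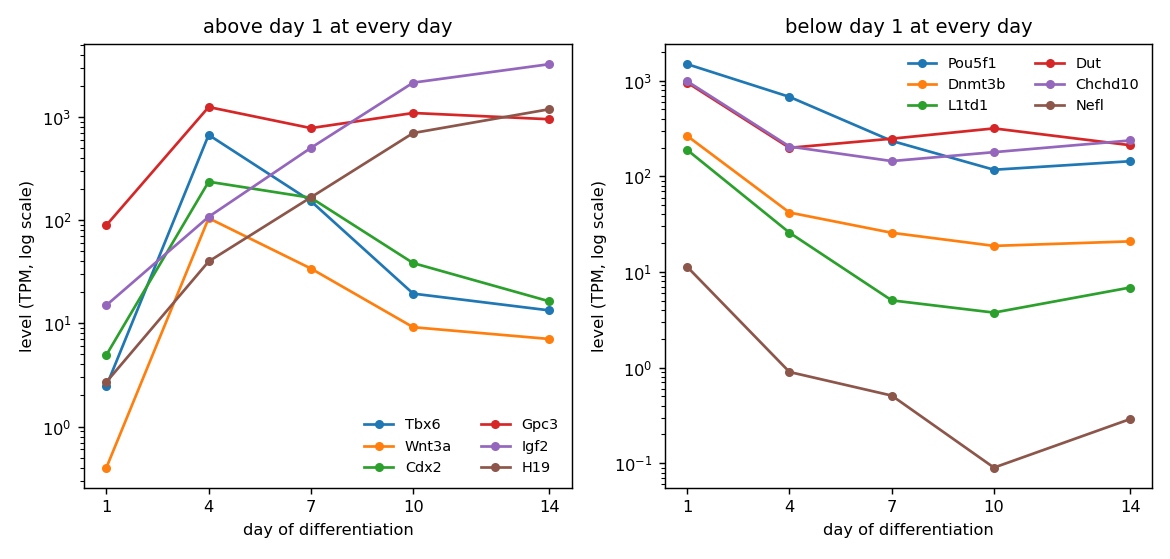
Level (vertical, TPM, log scale) over days 1, 4, 7, 10 and 14 for 6 genes above day 1 at every later day and 6 genes below it, picked after their values were seen. Tbx6, Wnt3a and Cdx2 are highest on day 4, Igf2 and H19 are highest on day 14, and Pou5f1 is at 678 TPM on day 4 and lower after it.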

How the data were processed

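RNA of P19CL6 cells was profiled by tag counting in 4 libraries of day 4 and 3 libraries of day 1. The build was mm9 per the submitters' processing notes. Aligner, counter and filter test were not given in the sources used here. For day 4 against day 1, the deposited table holds the authors' mean raw tag count per day, the deposited TPM (a library's tags scaled to a common total) per day and the deposited log2 ratio. TPM of 0.01 stands for 0 tags and was read as 0. The deposited columns headed P-Value and FDR were read as scores and left out, because many values exceed 1. The table holds only genes passing an FDR filter, per the series' design text, and its smallest absolute log2 ratio is 1.00. No column holds the values of 1 library, so no test between replicates and no SD was possible.

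The deposited mean count times the number of libraries was a whole number for 100% of genes, within 0.01 of the printed mean, which gave summed tags per day. Folds were computed from these sums and from the day totals implied by the deposited values, which were 23.4 (day 4) and 17.4 (day 1) in units of 1e+06 tags. Exact Clopper-Pearson 95% intervals cover counting error only. For a gene at 0 tags a floor of 3 counts per day was used, and its fold is relative to that floor and is not a lower limit. A gene is called higher or lower where the table lists it. Folds and intervals were checked on simulated data.

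The 42 gene lists and the tables' members were chosen with earlier results of these data known. Symbols were matched as written, and 26 of the 57 blank symbols were read from the gene description. Named genes are the 4 mesoderm markers, up to 8 members per list ranked by the lower limit of the fold at 50 tags or more, the 20 steepest and the 15 with the largest TPM difference per direction, genes at 0 tags, genes at the 2-fold edge, up to 4 members per pathway and 16 genes followed whether listed or not. Alternatives were a median level, a 4-fold limit, 1 entry per symbol, tags on both days, unscaled counts, a pseudocount of 1 TPM and the deposited log2, and, added after seeing the data, day 1 sums under 6 tags set to 6 and totals without ribosomal RNA. Python 3.11.15, numpy 2.4.6, scipy 1.17.1 and pandas 2.3.3 were used.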

Additional observations from a re-analysis of the deposited data

How the results depend on the processing

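No paired analysis was possible because the table's columns hold means over the libraries of a day and no value of 1 library, and for the same reason no library could be left out in turn. The share of genes higher on day 4 was 50.5%, and moved to 42.8% for genes with at least the median level, 71.7% among genes changed at least 4-fold and 54.6% among genes whose counting interval lay beyond 2-fold. It was between 49.0% and 50.6% under the other alternatives run. Without the 10 genes with the largest difference in TPM, the higher genes held 4.15% of tags on day 4 and 1.29% on day 1, and the lower genes 2.94% on day 4 and 7.54% on day 1. Of 33 lists with at least 5 listed members, 20 had more higher than lower, 19 at or above the median level and 17 at a 4-fold limit, and no list changed sides. Of 108 pathways 21 had at most 25% or at least 75% of their genes higher, and 15 did among pathways with at least 10 genes at or above the median level. The 15 are not all among the 21, since they include focal adhesion, with 71.15% of all its genes higher. Aminoacyl-tRNA biosynthesis, ECM-receptor interaction and neuroactive ligand-receptor interaction had 8, 5 and 3 genes at that level, too few to be counted. Of 403 named genes 0 changed direction with a pseudocount of 1 TPM, with the deposited log2 or with unscaled counts, which could be set for 380 of them. This was fixed in advance and tests nothing. A constant added to both days keeps the direction, every gene differed at least 2-fold, and leaving out the scaling shifts each log2 ratio by 0.0133. The pseudocount moved 71 by over 1.5 times and took 13 under 2-fold, and unscaled counts moved 0 by that much and took 6 under 2-fold. The deposited log2 moved 23, all at 0 tags on 1 of the days, which it counts as 0.01 TPM, so that the log2 ratio of Lefty2 is 11.82 in the authors' deposited table and 7.72 here. Setting day 1 sums under 6 tags to 6, chosen after seeing the data, moved 28 of 28 named genes concerned by over 1.5 times and reversed 0. That setting could not have reversed any of them, given their day 4 levels. The means carry no spread between libraries, so no fold can be set against replicate error, and genes that failed the authors' filter were not analysed here.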

Other observations

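Of the genes with 0 tags on day 1, several belong to none of the groups described above. Arg1, the arginase of the urea cycle, had 18.5 TPM on day 4 and 0 tags on day 1. Its fold was 107 against the floor and 53.6 with day 1 at 6 tags. Ptgds, a prostaglandin D synthase, had 15.1 TPM on day 4 and 0 tags on day 1, and Klhl6, a BTB-kelch protein, had 18.2 TPM on day 4 and 0 tags on day 1. Both had lower levels on day 7, at 3.68 and 13.02 TPM.

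Among the steepest falls, Eras, a Ras protein of embryonic stem cells, was at 0.64 TPM on day 4 and 18.5 TPM on day 1, 29.0-fold lower (95% counting interval 17.3 to 52.4). Trp73, a p53 relative, had 0 tags on days 4, 7, 10 and 14 and 2.93 TPM on day 1. Cd209c, a C-type lectin gene, was at 47.0 TPM on day 4 and 517 TPM on day 1, and it stayed between 40.4 and 49.5 TPM on the later days. Crip2, a LIM domain protein, was at 15.7 TPM on day 4 and 161.5 TPM on day 1. Chchd10, a mitochondrial protein, was at 205 TPM on day 4 and 986 TPM on day 1.

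The day 1 tag sums have a gap at 3, 4 and 5 tags that the day 4 sums lack, while a sum of 1 occurs for 0 genes on both days. Sums of 3, 4 and 5 tags occur for 1, 2 and 2 genes on day 4 and for 0 genes on day 1 in the day 4 table, while a sum of 2 occurs for 4 genes on day 4 and 29 on day 1.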
